A study of Mus musculus with 8 samples.

Results

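The presynaptic active zone is the patch of plasma membrane at which synaptic vesicles dock and fuse, and it is held together by a small set of large, multidomain scaffold proteins. The genes described are 10 named members: the giant scaffolds Bsn and Pclo, the RIM genes Rims1 and Rims2, the ELKS genes Erc1 and Erc2, the priming factor Unc13a, the RIM-binding protein gene Rimbp2, and the liprin-α genes Ppfia2 and Ppfia3. They were picked by name as active zone scaffolds, and their identifiers were matched to annotated symbols, 10 of 22430 genes listed. In the nerve terminal, Bassoon and Piccolo span the cytomatrix above the release site, RIMs and RIM-binding proteins bring calcium channels close to docked vesicles, Munc13 prepares those vesicles for fusion, and ELKS and liprin-α proteins bind several of the others.

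Messenger RNA abundance was measured in brain tissue of C57Bl/6JRj male mice, 4 of them young adults (6m, an age of 6 months) and 4 of them old (24m, an age of 24 months), with no treatment or transgene in either group. Each library came from a homogenised hemisphere of a single animal (the labels name the tissue whole brain and also brain hemisphere), so neurons of all regions and non-neuronal cells were read together. Polyadenylated RNA was sequenced as directional paired-end libraries, and the comparison of 24m with 6m asks how messenger RNA levels differ with age. Only male mice of a single inbred strain were used. Total counts were 63460940 to 103462414 per library, and the deepest library was 24m replicate 1, which also had the lowest 24m level in 9 of the 10 genes described here. All 10 neuron markers examined were detected, with a summed level of 5367 to 5895 CPM (counts scaled to a library of 1000000) in 6m and 4344 to 5290 CPM in 24m. In bulk tissue, fewer cells of a type and less RNA per cell cannot be told apart.

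Active zone scaffold messenger RNAs were more abundant in the aged brain. By the edgeR quasi-likelihood test, 9 of the 10 genes rose and none fell. A gene was called, after the thresholds of the study, where its p adjusted by Benjamini-Hochberg was 0.05 or less and its log2 fold change was 0.58 or more in size. Over all 16730 genes tested, 25.3% were called higher and 18.3% lower. The remaining gene, Ppfia3, passed on p but changed by less than the fold threshold, so that all 10 passed on p alone, against 32.7% of all genes passing on the higher side. The log2 fold changes (24m over 6m) ran from 0.38 to 3.09 with a median of 1.37, where the median of all tested genes was -0.0034. In 9 of the 10 genes every 24m library lay above every 6m library, a separation seen in 28.4% of all genes tested, and the exception was Pclo. The summed level of the 10 genes was 496, 564, 561 and 528 CPM over the 6m libraries (in the order of replicates 1 to 4, as in all such lists) and 778, 1097, 1190 and 1336 CPM over the 24m libraries (two-sided exact permutation p = 0.0286, the lowest that 4 against 4 libraries can give). The genes differed widely in the size of the change, and the plot of levels by library shows them side by side.

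**Figure D1:**
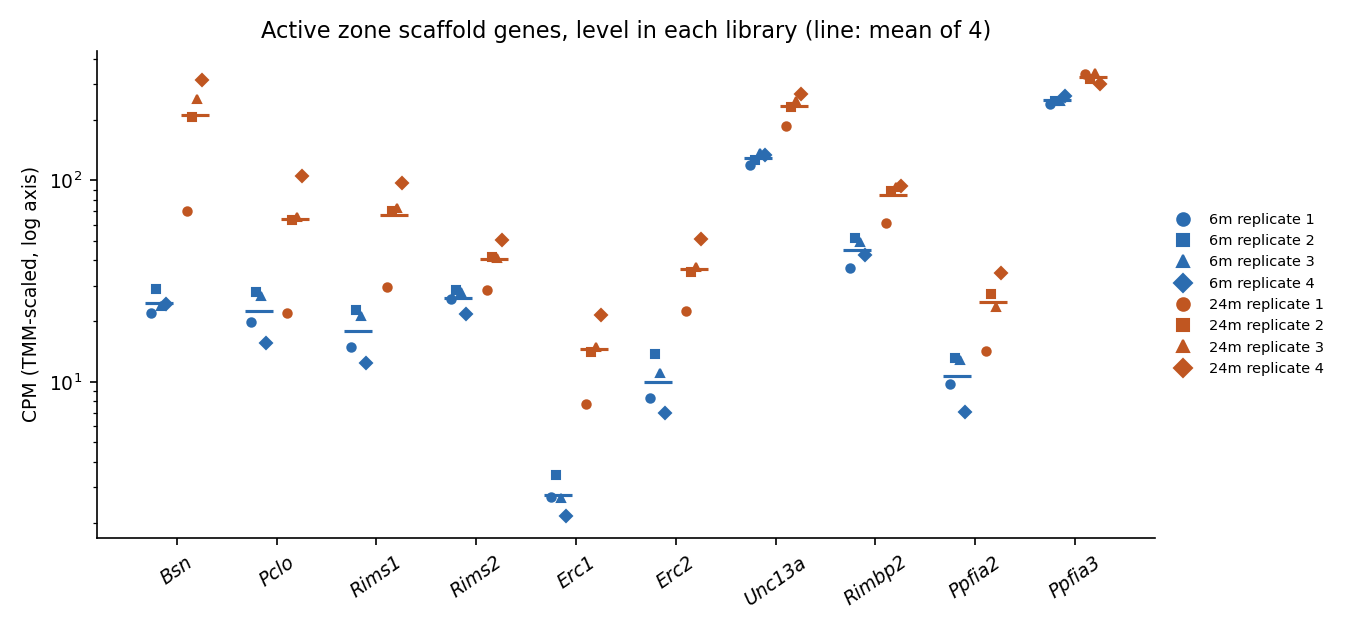
Level of each scaffold gene (CPM after TMM scaling, log axis) in the 4 libraries of 6m (blue) and the 4 of 24m (orange), with a horizontal line at the mean of each age. The ages are separated for 9 genes, Pclo overlaps through 24m replicate 1 (orange circle), and the gap is widest for Bsn, at 22.0 to 28.7 CPM in 6m and 70.3 to 313 CPM in 24m.

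Bsn (ENSMUSG00000032589, chr9:107973221-108067629, minus strand, GRCm39) encodes Bassoon, among the largest proteins of the presynaptic cytomatrix and a tether of synaptic vesicles. Its level was 22.0, 28.7, 23.9 and 24.2 CPM in the young and 70.3, 207, 252 and 313 CPM in the aged libraries. The 6m libraries lay close together, whereas the 24m libraries spread over 4.45-fold with replicate 1 at the bottom, and the lowest 24m library was still 2.45 times the highest 6m library. On the log2 scale Bsn rose by 3.09 ± 0.38 (SE, as for all fold changes here), an 8.52-fold difference (adjusted p = 0.000169). This was the largest change among the 10 genes. Against the 6m mean, 24m replicate 1 was 2.85-fold higher and the mean of 24m replicates 2 to 4 was 10.4-fold higher.

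Pclo (ENSMUSG00000061601, chr5:14564932-14913473, plus strand) encodes Piccolo, a structural relative of Bassoon that also links the active zone to the actin cytoskeleton. It stood at 19.7, 27.8, 26.5 and 15.5 CPM in the 6m libraries and at 22.0, 63.7, 65.8 and 105 CPM in the 24m libraries. The ages overlapped because 24m replicate 1 lay within the 6m range, at 0.985 times the 6m mean, while the other 24m libraries averaged 3.50 times that mean. Pclo rose by 1.52 ± 0.39 on the log2 scale (adjusted p = 0.00741). Without 24m replicate 1 the log2 fold change of Pclo was 1.83 (adjusted p = 3.3e-05) and the ages no longer overlapped.

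The start regions of Bsn and Pclo are shown because both genes rose and both are known for the same role, yet the letters before their starts differ. Each is a window of 300 bases read from GRCm39, with 250 bases before and 50 bases from the start of the canonical transcript in GENCODE, written 5′ to 3′ on the strand of the gene. Capitals mark the GC box, searched as GGGCGG on both strands (CCGCCC on the other), whose letters share bases with the EGR motif GCGTGGGCG where both occur. The Bsn window is chr9:108067580-108067879 and holds no GC box, with 34 CG dinucleotides. The Pclo window is chr5:14564682-14564981 and holds 4 GC boxes, the first of them at position -68 from the start, with 35 CG dinucleotides.
Bsn: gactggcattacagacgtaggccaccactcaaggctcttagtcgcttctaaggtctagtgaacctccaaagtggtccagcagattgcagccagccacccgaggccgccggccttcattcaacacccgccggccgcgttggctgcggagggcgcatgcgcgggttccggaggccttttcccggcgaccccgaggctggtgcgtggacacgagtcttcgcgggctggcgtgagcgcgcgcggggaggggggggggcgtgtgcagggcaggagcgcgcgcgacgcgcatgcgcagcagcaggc
Pclo: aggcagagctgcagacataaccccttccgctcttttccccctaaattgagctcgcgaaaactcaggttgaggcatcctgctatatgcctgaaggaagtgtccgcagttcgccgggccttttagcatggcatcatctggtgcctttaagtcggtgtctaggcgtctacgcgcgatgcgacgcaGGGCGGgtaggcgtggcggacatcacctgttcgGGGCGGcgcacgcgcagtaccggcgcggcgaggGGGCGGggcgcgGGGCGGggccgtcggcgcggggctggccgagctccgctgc
Over the windows of all 10 genes, 5 held a GC box (Pclo, Rims2, Erc1, Ppfia2 and Ppfia3), compared with 52.7% of the 16677 windows of tested genes. The CCAAT box, searched as CCAAT on both strands, was in 4 of the 10 and in 38.9% of all windows, and TATAAA was in the Unc13a window alone and in 9.12% of all. Neither the cyclic AMP response element TGACGTCA, nor the E-box CACGTG, nor the EGR motif was in any of the 10 windows, against 2.86%, 9.29% and 0.941% of all windows. Of the 9 genes called higher, 4 held a GC box. A match of letters is a description of the window and not a binding site, and the annotated canonical start need not be the one used in brain, which was not measured here.

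Among the RIM genes, whose proteins bind vesicle-attached Rab3, Munc13 and calcium channels, Rims1 rose more than Rims2. Rims1 (ENSMUSG00000041670, chr1:22356133-22845686, minus strand) was at 14.9, 22.7, 21.3 and 12.4 CPM in 6m and at 29.6, 70.5, 73.2 and 96.5 CPM in 24m. Every 24m library was above the 6m range, although 24m replicate 1 exceeded the highest 6m library by only 1.31-fold. The log2 fold change of Rims1 was 1.92 ± 0.33 (adjusted p = 0.000926).

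Rims2 (ENSMUSG00000037386, chr15:39060328-39549500, plus strand) was at 25.6, 28.6, 27.9 and 21.7 CPM in 6m and at 28.7, 41.7, 40.9 and 50.7 CPM in 24m. The separation of its ages was narrow, with 24m replicate 1 at 1.003 times the highest 6m library. Rims2 rose by 0.64 ± 0.16 (adjusted p = 0.00729), just over the fold-change threshold. The fold change fell under that threshold without 6m replicate 4 (0.56) or without 24m replicate 4 (0.52), with an adjusted p of 0.0247 and 0.0157.

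The ELKS genes encode coiled-coil proteins that bind RIMs, Bassoon and liprin-α. Erc1 (ENSMUSG00000030172, chr6:119547756-119825459, minus strand), which is also expressed widely outside the nervous system, had the lowest level of the 10 genes, also per length, with 2.68, 3.47, 2.65 and 2.16 CPM in 6m and 7.79, 14.1, 14.8 and 21.4 CPM in 24m. Its counts were nevertheless 143 to 245 per 6m library and 807 to 1865 per 24m library. The lowest 24m library was 2.25 times the highest 6m library, a wide gap. The rise of Erc1 was 2.40 ± 0.29 (adjusted p = 0.000141), second in size to that of Bsn.

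Erc2 (ENSMUSG00000040640, chr14:27344274-28200509, plus strand), the mainly neuronal ELKS gene, was at 8.34, 13.7, 11.0 and 7.04 CPM in 6m and at 22.3, 35.1, 37.3 and 51.1 CPM in 24m. All 24m libraries were at least 1.63 times the highest 6m library. Erc2 rose by 1.86 ± 0.27 (adjusted p = 0.000379).

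Unc13a (ENSMUSG00000034799, chr8:72076694-72124685, minus strand) encodes Munc13-1, which primes docked vesicles for fusion. It was an abundant transcript with little spread, 119, 126, 137 and 133 CPM in 6m and 185, 232, 248 and 268 CPM in 24m, without overlap. The log2 fold change was 0.86 ± 0.12 (adjusted p = 0.000259). The protein coding genes Colgalt1 and Jak3 overlap Unc13a on the other strand, and the strand setting used in counting was not stated.

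Rimbp2 (ENSMUSG00000029420, chr5:128834853-129030550, minus strand) encodes a RIM-binding protein that links RIMs to calcium channels. Levels were 36.5, 51.5, 49.6 and 42.8 CPM in 6m and 61.6, 88.3, 92.8 and 94.1 CPM in 24m. The lowest 24m library was 1.20 times the highest 6m library. Rimbp2 rose by 0.90 ± 0.16 (adjusted p = 0.000935), a change close in size to that of Unc13a.

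The liprin-α genes, whose proteins connect receptor tyrosine phosphatases of the presynaptic membrane with the scaffold, differed most in level, Ppfia3 being far more abundant than Ppfia2 also per length. Ppfia2 (ENSMUSG00000053825, chr10:106305173-106771813, plus strand) was at 9.72, 13.1, 12.8 and 7.05 CPM in 6m and at 14.3, 27.3, 23.4 and 34.8 CPM in 24m. Its ages were separated by a small margin, 24m replicate 1 being 1.09 times the highest 6m library. Ppfia2 rose by 1.23 ± 0.28 (adjusted p = 0.00363), and Acss3 overlaps it on the other strand.

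Ppfia3 (ENSMUSG00000003863, chr7:44988545-45016901, minus strand) was the most abundant member, also per length, with 238, 248, 248 and 262 CPM in 6m and 336, 317, 341 and 301 CPM in 24m. The replicates were tight in both ages and did not overlap. Its change of 0.38 ± 0.08 on the log2 scale had an adjusted p of 0.0020 and was too small for a call. The Ppfia3 start window (chr7:45016385-45016684) is shown as that of the gene that moved least, with its 3 GC boxes in capitals.
Ppfia3: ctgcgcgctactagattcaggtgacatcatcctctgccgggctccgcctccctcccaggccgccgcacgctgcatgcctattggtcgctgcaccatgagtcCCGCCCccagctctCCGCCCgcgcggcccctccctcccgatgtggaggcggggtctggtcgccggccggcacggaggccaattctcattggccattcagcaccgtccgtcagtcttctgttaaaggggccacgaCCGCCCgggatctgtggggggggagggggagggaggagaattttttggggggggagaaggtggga
This window alone among the 10 held the letters TTCAGCACC, part of the RE1 element bound by the neuronal gene repressor REST, at position -55 from the start, which 0.330% of all windows hold. It also held 3 CCAAT boxes.

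Between genes, levels can be compared only per length, here as mean CPM per kilobase of exonic sequence. That length is the union of all annotated exons and can far exceed the canonical transcript (Erc2 11511 against 3367 bp, Erc1 18317 against 8874 bp). The order depends on this choice, and the order per canonical length was not taken. In 6m the order was Ppfia3 (30.0 ± 1.15, SD, n = 4), Unc13a (7.80 ± 0.485), Rimbp2 (3.67 ± 0.556), Rims2 (1.90 ± 0.228), Rims1 (1.79 ± 0.496), Bsn (1.53 ± 0.177), Pclo (0.997 ± 0.258), Ppfia2 (0.881 ± 0.234), Erc2 (0.870 ± 0.256) and Erc1 (0.150 ± 0.0294). Neighbours from Rims2 to Bsn overlapped in their libraries, as did those from Pclo to Erc2, and the other neighbours did not. In 24m Ppfia3 stayed first (39.0 ± 2.24) and Erc1 last (0.793 ± 0.303), each apart from its neighbour, and all neighbours from Unc13a (14.1 ± 2.15) to Ppfia2 (2.06 ± 0.707) overlapped. Bsn, at 13.1 ± 6.39 CPM per kilobase in 24m, moved from the sixth place to the third. Across the 10 genes, the log2 fold change was larger where the 6m level per kilobase was lower (Pearson r = -0.66, Spearman rho = -0.72), a description over genes that share the same 8 libraries and, in the 6m level, a term of the fold change itself.

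Because structurally related genes were read in the same libraries, the balance within a pair can be given free of any scaling factor, as the log2 ratio of the counts of 2 genes in each library. This was done for 4 pairs, with exact two-sided permutation tests over 70 assignments and adjustment over the 4 pairs. The ratio of Bsn to Pclo was 0.16, 0.05, -0.15 and 0.64 in the young and 1.67, 1.70, 1.94 and 1.57 in the aged libraries. The difference of 1.55 separated the ages (6m 0.17 ± 0.34, 24m 1.72 ± 0.16, SD; exact p = 0.0286, adjusted 0.0381), so that Bsn had 1.13 counts for each count of Pclo in 6m and 3.30 in 24m. All 24m libraries stood close together in this ratio, 24m replicate 1 included.

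The ratio of Rims1 to Rims2 was negative in all 6m libraries (-0.78, -0.33, -0.39 and -0.81) and positive in all 24m libraries (0.05, 0.76, 0.84 and 0.93). The counts thus went from more Rims2 to more Rims1, a difference of 1.22 (6m -0.58 ± 0.25, 24m 0.64 ± 0.40; exact p = 0.0286, adjusted 0.0381). Erc1 to Erc2 moved less, from -1.64, -1.98, -2.06 and -1.70 in 6m to -1.52, -1.32, -1.33 and -1.26 in 24m, and Erc2 kept more counts than Erc1 in all 8 libraries. The difference of 0.49 also separated the ages (exact p = 0.0286, adjusted 0.0381). For Erc1 to Erc2 the exact p was 0.0571 without 24m replicate 2, 3 or 4. For Rims1 to Rims2 it was 0.0571 with any single 6m library left out. As differences of the edgeR fold changes, the Erc1 to Erc2 value was 0.54 and became 0.35 after removal of the length trend described below.

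For Ppfia2 to Ppfia3 the ratio was -4.61, -4.25, -4.28 and -5.21 in 6m and -4.56, -3.54, -3.87 and -3.11 in 24m. The ages overlapped through 24m replicate 1, and the difference of 0.82 did not pass (exact p = 0.0857, adjusted 0.0857). Without that library the difference was 1.08 (exact p = 0.0286). How reads that fit both genes of a pair were counted was not stated, and this bears on all 4 ratios.

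**Figure D2:**
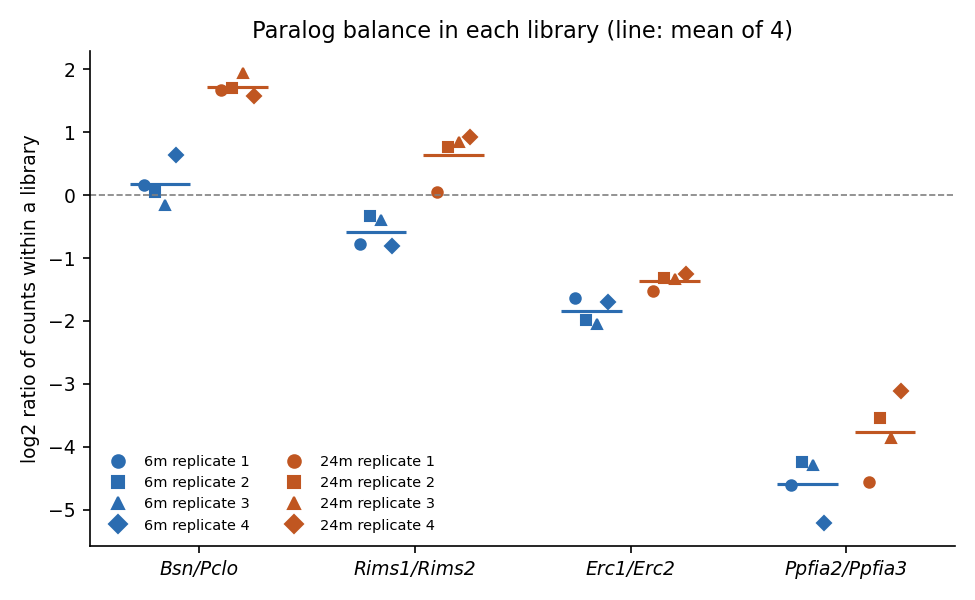
Log2 ratio of the counts of the paired genes in each library, 6m in blue and 24m in orange, with a line at the mean of 4 libraries and a dashed line at equal counts. The ages separate for Bsn/Pclo, Rims1/Rims2 and Erc1/Erc2, and overlap for Ppfia2/Ppfia3, where 24m replicate 1 (-4.56) lies among the 6m libraries.

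Libraries of one age differed from each other. In 24m, replicate 1 was the lowest library for 9 of the 10 genes and replicate 4 the highest for 9. On the log2 scale Bsn deviated from the 24m mean by -1.39, 0.17, 0.45 and 0.77 in replicates 1 to 4, and Pclo by -1.34, 0.19, 0.24 and 0.91. Unc13a followed with a smaller amplitude, -0.32, 0.00393, 0.10 and 0.21. Ppfia3 went the other way, 0.06 in 24m replicate 1 and -0.11 in 24m replicate 4. In 6m the deviations were smaller, with Pclo at -0.15, 0.35, 0.28 and -0.49 and Unc13a at -0.12, -0.03, 0.09 and 0.05. The 6m value furthest from its mean was that of Ppfia2 in replicate 4, -0.55. Without 24m replicate 1 the median log2 fold change of the 10 genes was 1.63 and 9 were still called higher.

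**Figure D3:**
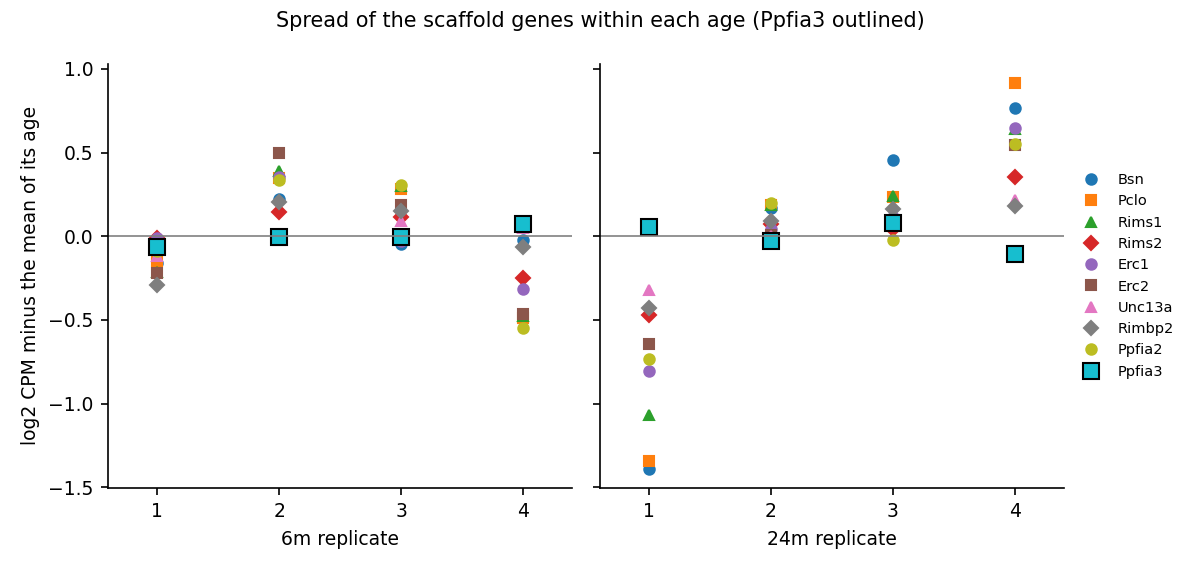
Deviation of each gene from the mean log2 CPM of its age, for the 4 libraries of 6m (left) and of 24m (right). In 24m the 9 genes other than Ppfia3 lie lowest in replicate 1, down to -1.39 for Bsn, and Ppfia3 (outlined) stays within -0.11 to 0.08.

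The scaffold genes are long, and in these libraries fold change moved with gene length. Their exonic lengths (union of exons) were 8313 bp (Ppfia3) to 22457 bp (Pclo), with a median of 12968.5 bp, against a median of 5768 bp for the tested genes. Across all 16677 tested genes with an annotated length, log2 fold change correlated with log10 exonic length at r = 0.38 (rho = 0.42), a description across genes that share the 8 libraries. Of the 4680 tested genes at least as long as Ppfia3, 42.0% were called higher and 7.48% were called lower, and their median (log2) was 0.42. The share of the scaffold genes called higher, 9 of 10, is to be read beside that value as well as beside 25.3%. Among the 10 genes, the fold change followed exonic length loosely (r = 0.38, rho = 0.27). Exonic GC content ran from 41.2% (Ppfia2) to 59.7% (Bsn), around a median of 48.7% against 49.3% for all tested genes, and the fold change did not follow it (r = 9.77e-05, rho = -0.18).

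With the length trend removed from each library by a smoothed offset, 6 of the 10 genes were called higher, against 22.7% of all 16730 genes in the same fit, and the median was 0.81. Bsn (2.50), Erc1 (1.80), Rims1 (1.56) and Erc2 (1.45) kept log2 fold changes above 1, and Pclo (0.82, adjusted p = 0.0165) and Ppfia2 (0.80, adjusted p = 0.00688) stayed called. Rimbp2 (0.48, adjusted p = 0.0029) and Unc13a (0.33, adjusted p = 0.00618) passed the adjusted p but no longer the fold-change threshold. Rims2 (0.18, adjusted p = 0.107) and Ppfia3 (0.13, adjusted p = 0.244) passed neither. Whether the length trend is part of ageing or of the libraries was not tested.

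**Figure D4:**
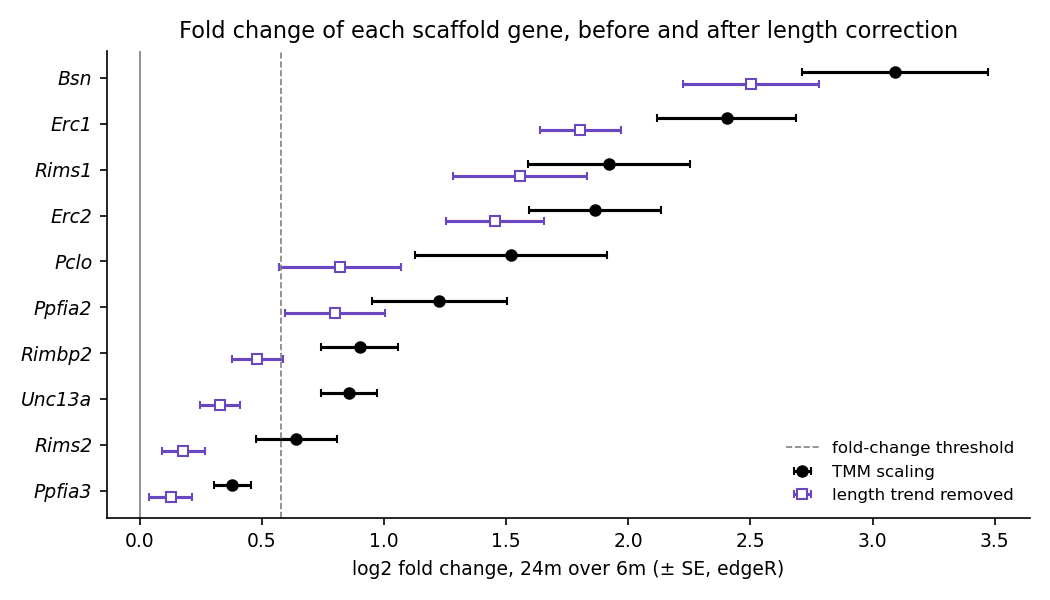
Log2 fold change of each gene (24m over 6m) with its SE from edgeR, under TMM scaling (filled circles) and with the length trend removed (open squares). All 10 values move to the left after removal, and Bsn, Erc1, Rims1, Erc2, Pclo and Ppfia2 stay beyond the dashed threshold of 0.58.

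The rest of the presynaptic release machinery was described with fixed lists from the same fit, by counts and medians beside the 25.3% of all genes called higher. Of 9 relatives of the scaffold genes, 5 rose and none fell, with a median log2 fold change of 0.82. Rims3, a short RIM without the Rab3-binding part, stood at 19.2 ± 1.28 CPM in 6m and at 68.8 ± 4.22 CPM in 24m (SD, n = 4), and rose by 1.84 ± 0.09 on the log2 scale (adjusted p = 1.11e-05), whereas the liprin-β gene Ppfibp2 stood at 13.3 ± 0.991 and 12.3 ± 0.589 CPM (-0.11 ± 0.10, adjusted p = 0.345), a value that became 0.11 under scaling by library totals. With the length trend removed, 2 of the 9 relatives were called higher (median 0.35), a share near the 22.7% of all genes called higher in that fit. Of 11 partners that bind the scaffold, 5 rose and 1 fell, with a median of 0.30. With the length trend removed that median turned to -0.12, with 5 of the 11 partners still called higher and none lower. Apba1, the adaptor Mint1, had the largest value (2.11 ± 0.25, adjusted p = 0.000142), and Lin7b, a small PDZ protein of the CASK complex, the smallest (-1.13 ± 0.16, adjusted p = 0.000309, under the fold-change threshold at -0.48 with the length trend removed).

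Presynaptic calcium channel subunits, the cargo of RIMs and RIM-binding proteins, rose in 7 of 10 cases with a median of 0.94 and none fell. With the length trend removed the median was 0.56 and 5 of 10 were called higher. The auxiliary subunit Cacna2d2 had 17.8 ± 1.03 CPM in 6m and 62.5 ± 16.3 CPM in 24m (1.81 ± 0.18 on the log2 scale, adjusted p = 6.72e-05), and Cacnb3 had the smallest value (-0.04 ± 0.09, adjusted p = 0.729, and above 0 under 4 of 21 other fits). Of the 6 adhesion receptors that face the synaptic cleft, 1 rose: Ptprf, the LAR phosphatase that binds liprin-α, with 49.2 ± 3.82 CPM in 6m and 94.7 ± 11.3 CPM in 24m (0.95 ± 0.10, adjusted p = 0.000101). Its relative Ptprd was lower at an adjusted p of 0.0454 but within the fold-change threshold (-0.38 ± 0.15), and the median of the 6 was 0.45, turning to -0.03 with the length trend removed, where 2 of the 6 were called lower. The count called higher was 2 without 24m replicate 1, 3 (and 1 lower) with the GC trend removed and 4 with library totals alone.

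The vesicle fusion machinery rose in 7 of 14 genes (median 0.91, none fell), led by Napb, the neuronal β-SNAP that helps to recycle SNARE complexes (2.15 ± 0.27, adjusted p = 0.000191). Cplx2 had the smallest value there (-0.23 ± 0.12, adjusted p = 0.114, and 0.000479 under library totals). Among 12 synaptic vesicle proteins 8 rose and 1 fell (median 0.89), and with the length trend removed 6 were called higher (median 0.54). The vesicle glycoprotein gene Sv2b rose by 1.94 ± 0.21 (adjusted p = 0.000102), and Atp6v0c, a subunit of the proton pump, fell by 0.64 on the log2 scale (SE 0.13, adjusted p = 0.00191). It ran from -0.74 to -0.29 over the alternatives and was under the fold-change threshold without 24m replicate 4, with library totals alone, with the GC trend removed and with DESeq2 on quantile-normalized counts. On the other side of the synapse, 10 of 15 postsynaptic scaffold genes rose and none fell, with a median of 1.27, from Homer2 (0.09 ± 0.14, adjusted p = 0.596) to Dlg2, which encodes PSD-93 (2.57 ± 0.29, adjusted p = 0.000117). Homer2 was below 0 under 5 of 21 other fits, at -0.36 with the length trend removed (adjusted p = 0.00894). These lists differ in length and size from the 10 scaffold genes, and no test compared them.

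**Figure D5:**
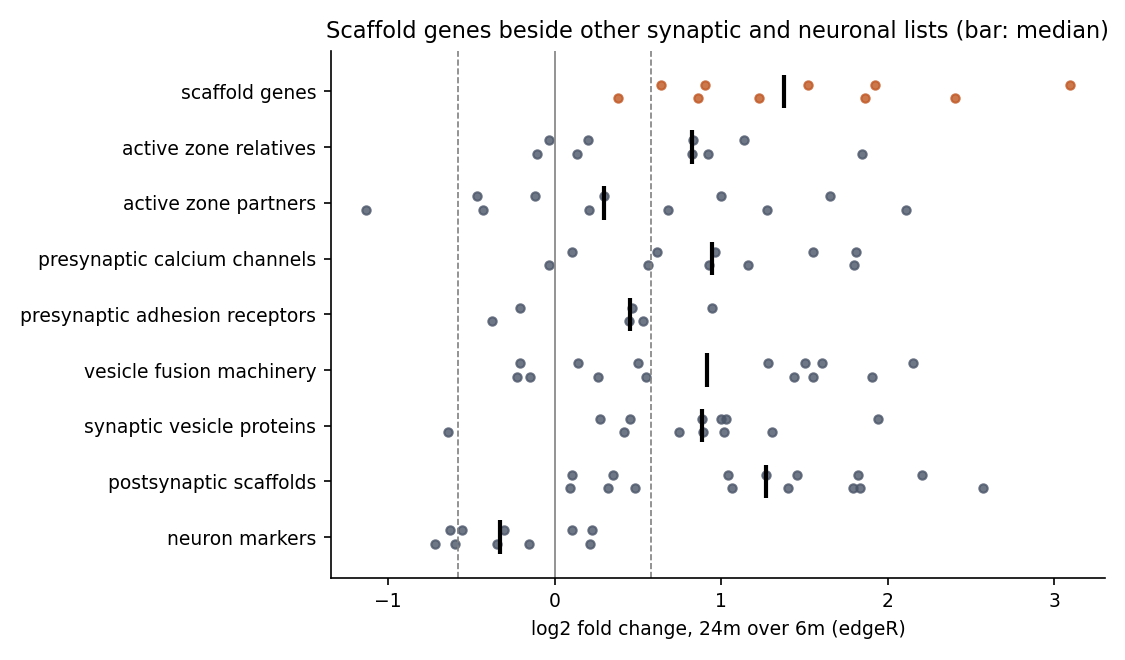
Log2 fold change (24m over 6m, edgeR) of every gene of the scaffold set (orange) and of 8 further lists (grey), with a bar at each median and dashed lines at the fold-change thresholds. The medians are 1.37 for the scaffold genes, 1.27 for the postsynaptic scaffolds and -0.33 for the neuron markers.

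Of the 10 general neuron markers none rose and 3 fell, beside 25.3% and 18.3% of all genes, with a median of -0.33, from the cytoskeletal gene Nefl (0.22 ± 0.11, adjusted p = 0.115) to Elavl4, which encodes an RNA-binding protein of neurons (-0.72 ± 0.13, adjusted p = 0.00104). The summed level of these markers was lower in 24m with no overlap (5545 ± 238 in 6m against 4710 ± 406 CPM in 24m, exact permutation p = 0.0286). That separation depended on the scaling: per library total, without TMM factors, the sums were 5019 to 5229 CPM in 6m and 4918 to 5297 CPM in 24m (exact permutation p = 0.514). The summed level of the scaffold genes stayed apart on that scale, at 455 to 540 CPM in 6m and 779 to 1512 CPM in 24m. The number of markers that fell was 3 with TMM scaling and 0 with library totals alone. Their median exonic length was 5028 bp, shorter than that of the scaffold genes.

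Markers of other cells of the tissue were also counted, and their part in the scaffold values was not tested. Of 8 astrocyte markers 5 rose and 1 fell, from S100b (-1.29 ± 0.18, adjusted p = 0.000323) to the water channel gene Aqp4 (1.92 ± 0.22, adjusted p = 0.000112), while their summed level was 2892 to 3826 CPM in 6m and 2847 to 3844 CPM in 24m. Of 8 microglia markers 2 rose, with Aif1 at -0.34 and Cx3cr1 at 1.72, and summed levels of 555 to 619 CPM in 6m and 535 to 781 CPM in 24m. That count of 2 is close to the 25.3% of all genes, and was 1 without 6m replicates 1 or 4 or without 24m replicates 2, 3 or 4, 1 with the GC trend removed, and 4 with the length trend removed. Oligodendrocyte markers summed to 3456 to 4323 CPM in 6m and 3713 to 4326 CPM in 24m, with Opalin the lowest at -0.45. Endothelial markers summed to 45.8 to 63.0 CPM in 6m and 31.4 to 52.5 CPM in 24m, with 1 of 8 higher (Flt1, 1.24) and 2 lower (Cldn5 at -1.06 the lowest), and with 2 higher without 6m replicates 1 or 2, without 24m replicates 1 or 2, with library totals alone, and with the length trend, the GC trend or both removed. Choroid plexus markers summed to 1775 to 3196 and 825 to 2254 CPM, with 4 of 6 higher (Kl, 1.53, the highest) and Folr1 at -0.85. None of them was called lower with all libraries, against 2 without 24m replicate 1, 1 without 6m replicate 2 and 1 with the length trend removed. The sums overlapped between the ages in each of these 5 cell types, and all markers of these lists passed the filter on low counts.

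Outside the lists, the genes with the pattern most like the mean log2 CPM of the scaffold set over the 8 libraries were Synj1 (Pearson r = 0.9994), Cers6 (0.9989), Vps13c (0.9989), Wnk1 (0.9987) and Atp6v1a (0.9987). The likeness is common in these data, since 2604 of 13529 genes compared had an r of at least 0.95. Synj1, which encodes the vesicle-recycling phosphatase synaptojanin 1, had 43.8 ± 8.42 CPM in 6m and 159 ± 62.2 CPM in 24m (1.86 ± 0.28 on the log2 scale, adjusted p = 0.000454).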

How the data were processed

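Counts were analysed for 8 libraries, 4 per age, from 8 mice. The authors trimmed reads with Trim Galore 0.4.11, aligned them to GRCm39 with HISAT2 2.1.0 (versions from the submitters' processing notes) and counted reads per Ensembl gene with featureCounts. The deposited values are whole-number counts, not normalized. Before running DESeq2, the authors filtered out genes at or below 5 counts and applied quantile and then row-median normalization. Here DESeq2 on quantile-normalized counts, without the row-median step, was an alternative.

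The 16730 of 22430 genes that had over 5 counts in 4 or more libraries were tested with edgeR 4.0.16 in R 4.3.3 (quasi-likelihood, TMM factors, age as the only term, Benjamini-Hochberg adjustment over all of them). CPM are counts per 1000000 after TMM scaling. A later GENCODE release than the authors' annotation, on the same assembly, gave symbols for 22281 genes, and the 149 without a match held 0.312% of counts. Total counts per library set counting errors that are small beside the spread between mice. Over 12 pairs of libraries of one age, chi-square per degree of freedom was 8.18 to 417, so none agreed within sampling noise and each counted as a replicate. All 10 scaffold genes overlap other annotated genes. The strand and multimapping settings of the counting were not stated.

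Alternatives were other scalings and filters, DESeq2 1.42.0, limma-voom (limma 3.58.1), offsets for length and GC trends (smoothing span 0.3), thinning to the smallest library, a replicate block and leaving out each library. Pair ratios were taken from the counts without a pseudocount, and a pseudocount of 0.5 was an alternative. The fits were tested on simulated data. The members and lists were chosen with earlier results of these data known. All members were named, with the largest and smallest fold change of each list and the 5 genes of the most similar pattern among those with a mean of at least 1 CPM. The result of another gene picked by this rule is not reported here.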

Additional observations from a re-analysis of the deposited data

Results flagged for a closer look

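The total of 24m replicate 1, 103462414 counts, stood apart from the other 24m libraries, of which the highest held 77044751 and the median 76695728. Its gap to the nearest library was 0.865 of the range of the group, which exceeds Dixon's limit for 4 samples. It was the single such case among 32 groups of 4 values examined (each member, each pair ratio, the members' sum and the totals, in each age), where chance gives about 1 in 20. The same library was the lowest of the 24m libraries in 9 of the 10 scaffold genes after scaling, and the calls without it are given beside the results. Whether its depth has a part in its lower scaffold levels was not tested. Thinning all libraries to the smallest total left the members' median at 1.37.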

How the results depend on the processing

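No member changed its sign under any of the 22 alternatives. Of 220 values of single members, 205 kept their side of the thresholds, 12 fell below and 3 rose above. The number of members called higher was 9, with 8 without 6m replicate 4 or 24m replicate 4 (Rims2 lost), 6 in each of the 3 settings that removed the length trend, and 10 with library totals alone or with no fold-change threshold. The median log2 fold change of the members was 0.81 with the length trend removed, 0.788 with length and GC trends removed, and 0.773 with the replicate block and length trend removed. With the GC trend removed Rims2 was under the threshold (0.57) and Ppfia3 over it (0.61). Library totals alone moved the median of all genes to 0.21 and gave 5449 genes higher and 1746 lower (75.7% higher, against 58.1% with TMM). Ppfia3 was then called at 0.60, with a distance between the members' median and that of all genes of 1.39 against 1.38 with TMM. DESeq2 on quantile-normalized counts moved the median of all genes to -0.10 and gave 3573 higher and 3891 lower (47.9% higher), with 9 members higher. With no fold-change threshold 4999 genes were lower. Replicate numbers did not pair the samples, since same-numbered libraries deviated together at r = 0.27, 0.14, 0.08 and -0.35. The fit with the replicate block called the 9 members and gave a median of 1.27. Leaving out 1 library gave differences of 1.15 to 1.30 for Rims1/Rims2 without a 6m library (exact p = 0.0571 each), with 1.13 to 1.42 over all 8, and 0.416 to 0.556 for Erc1/Erc2, with exact p = 0.0571 without 24m replicates 2, 3 or 4. For Ppfia2/Ppfia3 the range was 0.60 to 1.08, and the difference passed only without 24m replicate 1. Thinning all libraries to the smallest changed no call of a member, where the lowest counts before thinning were 143 to 245, of Erc1 in 6m.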

Other observations

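Beside the median log2 fold change of 1.37 of the scaffold genes, the postsynaptic scaffolds, which face the active zone across the cleft, had a median of 1.27 and the astrocyte markers one of 1.30. With the length trend removed the postsynaptic scaffolds had a median of 0.67 with 9 of 15 called higher, the astrocyte markers 0.85 with 5 of 8, the vesicle fusion machinery 0.76 with 8 of 14, and the active zone scaffolds 0.81 with 6 of 10, where 22.7% of all genes were called higher. No test compared these lists.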
